A study of Mus musculus with 19 samples.

Results

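The difference between IKKβ-/- and IKKβ+/+ aortas that was present with both infusions was described over all 19 of the 19 mice of the series. The 9 IKKβ-/- mice were compared with the 10 IKKβ+/+ mice in a single fit with the infusion as covariate, and each infusion was then fitted alone, so that a gene could be read in both. RNA was sequenced from the suprarenal aorta, the segment where abdominal aneurysms form in this mouse model, after 24 h of infusion by osmotic pump. IKKβ-/- mice (labelled KO) carried SMA-CreERT2, Ikkβ Flox/Flox and ApoE-/-. IKKβ+/+ mice (labelled Wild-type) were littermates with SMA-CreERT2 and ApoE-/- but no floxed Ikkβ. Every mouse was a male on a C57BL6 background, lacked ApoE, ate chow, carried the Cre and was given tamoxifen, so the genotypes differed by design only in the floxed gene. Their age is given as 8 weeks. Saline was infused into 5 IKKβ+/+ and 4 IKKβ-/- mice, and angiotensin II (Ang II, a peptide hormone that raises blood pressure) into 5 and 5. The labels give its dose as between 500 and 1000 ng/kg/min, and the authors give 1000 ng/kg/min for the sequenced mice. Cre was driven by the promoter of smooth muscle actin, so endothelium, fibroblasts and blood cells of the wall were not the target of the deletion, and the RNA came from the whole tissue.

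IKKβ, encoded by Ikbkb, is the catalytic subunit of the IκB kinase complex that acts in the canonical NF-κB pathway. The complex phosphorylates IκB proteins, which are then degraded, and the Rel family dimers that they held in the cytoplasm enter the nucleus and bind short κB sites in promoters and enhancers. Many target genes encode cytokines, adhesion molecules and feedback inhibitors such as IκBα and A20. In the aortic wall the pathway is best known for its part in inflammation and in the change of smooth muscle cells from a contractile to a matrix-producing state.

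The libraries held 11382573 to 19906694 reads on genes. The smooth muscle contractile genes were abundant in both genotypes, with summed levels of 507900 to 925600 normalized counts in IKKβ-/- mice and 555400 to 974900 in IKKβ+/+ mice. A normalized count is a read count divided by the size factor of its library. Reads on mitochondrial genes made up 5.994% to 14.09% of the IKKβ+/+ libraries (median 9.59%) and 7.876% to 38.71% of the IKKβ-/- libraries (median 20.34%). The highest shares belonged to IKKβ-/- mouse X2406 (saline, 38.71%) and IKKβ-/- mouse X2385 (Ang II, 37.19%), and leading counts are given with and without these mice. Each of the 4 groups has its own run of mouse numbers and no batch is stated, so a batch could not be told apart from the groups.

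With both infusions the knockout aortas had less Ikbkb, Itgb2, Nckap1l, Lcp1 and Hgsnat, and more Gsr and Rab4a. Of the gene lists, 12 of 36 collagen and fibrosis genes (8 with both infusions) and 6 of 21 elastic fibre genes (3 with both) fell, and 27 of 81 ribosomal protein genes (10 with both) rose. Of 19 circadian clock genes 6 rose (5 with both infusions) and 4 fell (2 with both). None of these list calls was kept with the mitochondrial read share, described above, as a covariate. Of 14845 genes tested, 880 (5.93%) were called for genotype (adjusted p below 0.1, fold change over 1.2), with 450 (3.03%) higher and 430 (2.9%) lower in IKKβ-/- mice. These shares are the background for each list count. Of the 880, 87 had fewer than 4 mice with at least 10 normalized counts in 1 genotype. Those 87 depended on the other genotype to pass the filter on low values. With a mean of at least 50 over all mice, a limit set after seeing the data, 716 of 11421 genes (6.27%) were called. All differences below are on the log2(normalized count + 1) scale as IKKβ-/- minus IKKβ+/+, with limma's Benjamini-Hochberg adjusted p over all genes tested, and a negative value is a lower level in IKKβ-/- mice. The median difference over all genes tested was -0.02.

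A gene was counted as shared when it was called and also had an unadjusted p under 0.05 with the same sign in the saline mice alone and in the Ang II mice alone. There were 326 shared genes (2.2%), 147 higher (0.99%) and 179 lower (1.21%). Their median absolute difference was 0.57 with saline and 0.51 with Ang II, and 202 of the 326 were larger with saline. Of these genes 66 differed by more than 2-fold and 147 by more than 1.5-fold, and 291 were protein coding. The main effect is built from the same mice, so that all 880 called genes had the same sign in both infusions is partly fixed by the call itself. A further 371 called genes had p under 0.05 with saline only and 181 with Ang II only.

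**Figure D1:**
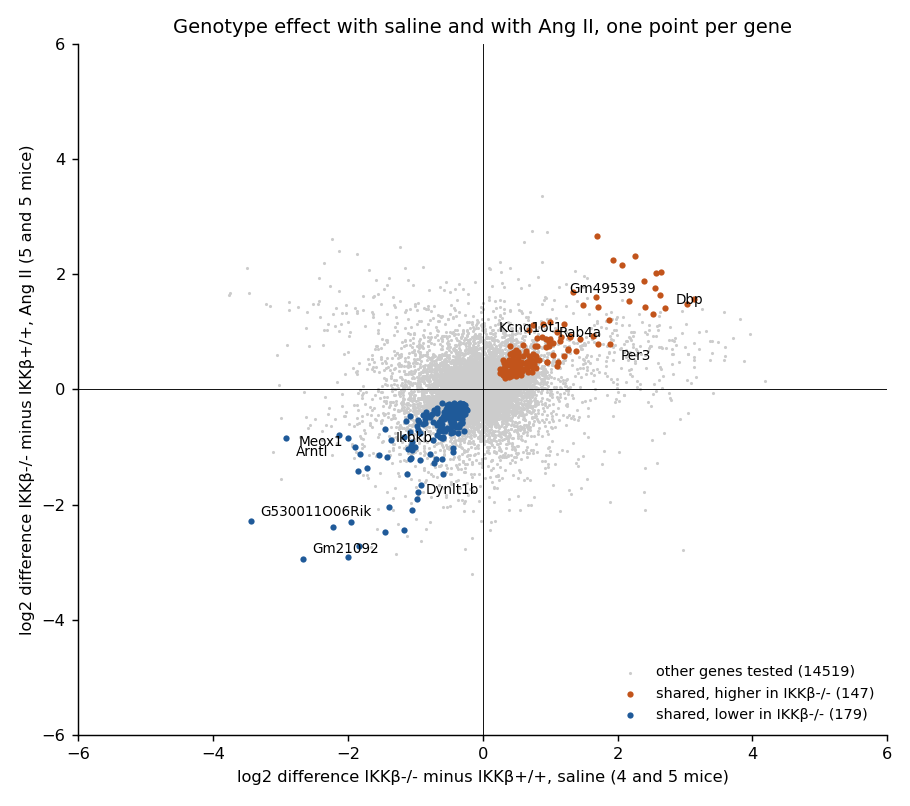
Each point is 1 of the genes tested, with its log2 difference between IKKβ-/- and IKKβ+/+ mice with saline on the x axis and with Ang II on the y axis; 147 shared genes that were higher and 179 that were lower are coloured and 14519 others are grey, with 1 point outside the axes. The shared genes lie in the quadrants of like sign, as their rule requires, while the grey cloud is spread along both axes.

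The number of called genes moved with single mice and with the mitochondrial read share. Leaving out mouse X2406 left 275 calls, X2373 276, X2385 338, X2403 400, X2370 451, X2376 462, X2401 464, X2359 490, X2358 524 and X2372 530, while leaving out X2383 gave 1468 and X2409 gave 1487. Shared genes numbered 185 without X2385, 189 without X2373 and 191 without X2406. Without both X2385 and X2406 there were 74 called genes, 73 of them among the 880, and 64 of the 326 shared genes kept the call. With the mitochondrial read share as a covariate 23 genes were called, 18 of them among the 880. All 326 shared genes kept their sign in both of these settings, with median absolute differences of 0.49 without both mice and 0.35 with the covariate. They were chosen for their sign in these same mice, so that it was kept was largely fixed by the choice. The mitochondrial share was higher in the IKKβ-/- group, and its part in the differences was not tested beyond these fits.

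**Figure D2:**
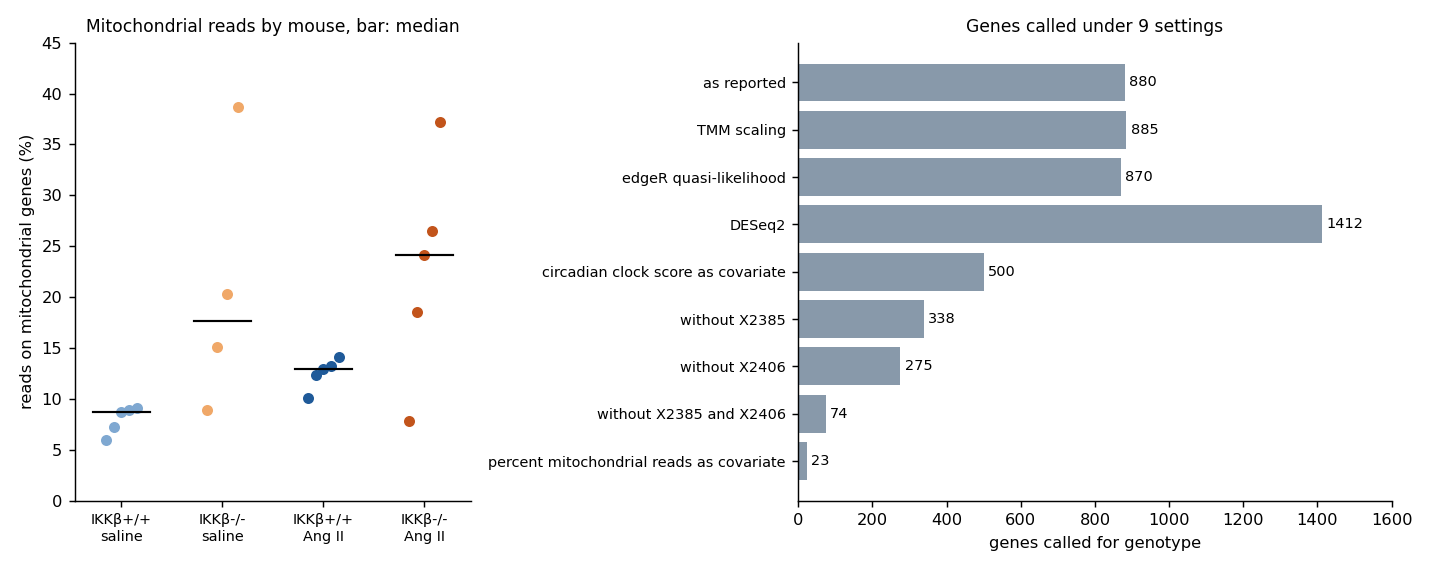
The left panel plots the percent of reads on mitochondrial genes for each mouse, with a bar at the group median, and the right panel the number of genes called for genotype under 9 settings. The counts run from 1412 with DESeq2 and 880 as reported down to 74 without mice X2385 and X2406 and 23 with the mitochondrial share as covariate.

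Over 31 other settings (other scalings and tests, other filters and covariates, and each mouse left out in turn), 17 of the 880 genes kept the call in every one. These genes were all shared. They rose in 4 cases (Gsr, Rab4a, Acbd4 and Nim1k) and fell in 13 (Ikbkb, Itgb2, Nckap1l, Lcp1, Meox1, Irx3, Hgsnat, Fut10, Dynlt1b, Tmem181b-ps, G530011O06Rik, Gm21092 and Gm36161). Lcp1, Irx3 and Acbd4 were outside the naming rule and were chosen after their values were seen. In 12 genes (0.0808%) every IKKβ-/- mouse lay outside the range of the IKKβ+/+ mice. Rab4a, Gsr, Pkig, Rps20 and Rps4x were higher in all 9 knockout mice, and G530011O06Rik, Gm21092, Gm36161, Dynlt1b, Nckap1l, Hgsnat and Ap2b1 were lower. Gm21092, Gm36161 and G530011O06Rik passed the filter on low values (10 normalized counts in at least 4 libraries) only through the controls, so their separation was partly fixed by it. Among the 11421 genes with a mean of at least 50 over all mice, a limit set after seeing the data, 9 had no overlap and 11 kept the call in every setting.

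Ikbkb (chr8:22659212-22706589, GRCm38), the targeted gene, had 594.3, 790.8, 695.2, 608.6 and 678.3 normalized counts in the 5 IKKβ+/+ saline mice and 464.2, 572.0, 585.5 and 439.0 in the 4 IKKβ-/- saline mice. With Ang II it had 708.0, 771.7, 684.5, 686.0 and 779.3 in IKKβ+/+ mice and 572.1, 430.2, 672.0, 515.4 and 548.8 in IKKβ-/- mice. With saline the genotypes did not overlap and neither did they with Ang II, and over both infusions 8 of the 9 knockout animals had less than any control. The means were 699.7 ± 66.8 (SD, n = 10) and 533.3 ± 78.9 (SD, n = 9), a level 23.8% lower in the knockout tissue. The log2 difference was -0.41 ± 0.08 (SE; adjusted p = 0.0224), with -0.39 for saline and -0.42 for Ang II (interaction adjusted p = 0.958). An exact permutation of genotype within each infusion gave p = 3.15e-05 (two-sided), the smallest that its 31752 arrangements can give. These are levels of the whole gene, in which the deleted exons were not resolved, and in whole tissue fewer cells of a type and less RNA per cell cannot be told apart.

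The pathway list of the IKK complex and its upstream kinases had 23 members tested, with a list median of -0.03. None rose and 3 fell, Traf3, Ripk1 and Ikbkb, the last being the targeted gene, where 2.9% of all genes were called lower. The other subunits of the complex gave small values. Chuk, which encodes the catalytic subunit IKKα, differed by 0.04 ± 0.10 (SE; adjusted p = 0.854) and Ikbkg, the regulatory subunit NEMO, by -0.07 ± 0.07 (adjusted p = 0.589). Neither passed the test. Traf3, an adaptor that restrains the non-canonical NF-κB pathway, fell. It had 516.3, 618.5 and 762.2 normalized counts in the lowest, median and highest IKKβ+/+ mouse and 367.7, 425.8 and 565.1 in IKKβ-/- mice, with 7 of 9 knockout mice below every control. Its difference was -0.50 ± 0.10 (SE; adjusted p = 0.0171), -0.52 with saline and -0.48 with Ang II. Ripk1, a kinase of the TNF receptor complex, fell by 0.29 on the log2 scale (adjusted p = 0.0775) and was not among the shared genes. Its call was kept in 10 of 19 fits that each left out 1 mouse. It was not kept without X2385 and X2406 (adjusted p = 0.245) or with the mitochondrial share as covariate (adjusted p = 0.906).

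Of 15 Rel family subunits and feedback inhibitors tested, none rose and Rel and Tnfaip3 fell, with a list median of -0.25. Over all genes tested 2.9% were called lower. Tnfaip3 encodes A20, a ubiquitin-editing enzyme that limits NF-κB signalling and is itself a target of the pathway. Tnfaip3 had 326.1, 237.4, 284.6, 239.3 and 224.8 normalized counts in IKKβ+/+ saline mice and 154.4, 101.1, 203.6 and 97.24 in IKKβ-/- saline mice. With Ang II it had 247.4, 233.8, 201.8, 160.5 and 145.1 in IKKβ+/+ mice and 117.4, 127.8, 91.92, 175.0 and 176.1 in IKKβ-/- mice. With saline the groups were apart, and with Ang II the highest 2 knockout mice lay within the control range. Its difference was -0.74 ± 0.16 (SE; adjusted p = 0.0316), -0.96 with saline and -0.53 with Ang II. Rel, the c-Rel subunit found mainly in immune cells, had 109.9, 137.9 and 197.1 normalized counts in the lowest, median and highest IKKβ+/+ mouse and 67.42, 97.95 and 139.9 in IKKβ-/- mice. It fell by 0.62 on the log2 scale (adjusted p = 0.0382), and this call was not kept without X2385 and X2406 (adjusted p = 0.138), whereas those of Tnfaip3 (adjusted p = 0.0264) and Traf3 (adjusted p = 0.0442) were. With the mitochondrial share as covariate the adjusted p was 0.531 for Rel, 0.249 for Tnfaip3 and 0.491 for Traf3, all over the threshold.

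Nfkb1, which encodes the p50 precursor, had a difference of -0.25 ± 0.07 (SE; adjusted p = 0.0602) and was left out of the calls by its fold change, with 7 of 9 knockout mice below every control. Rela, the p65 subunit, differed by -0.08 (adjusted p = 0.629). Nfkbia, which encodes IκBα, differed by 0.05 (adjusted p = 0.873), a value made of 0.49 with saline and -0.34 with Ang II (interaction adjusted p = 0.288), so its main effect describes neither infusion. None of 25 inflammatory target genes of NF-κB was called in either direction, with a list median of -0.32 and single genes from -1.35 to 0.03.

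The promoters of Rel, Traf3 and Tnfaip3 are shown because they carried the NF-κB consensus and belong to the pathway genes that fell. They are the 250 bases before the RefSeq start for Rel (minus strand, GRCm38.p6, chr11:23770970-23771219) and Traf3 (plus strand, chr12:111166120-111166369), and 30-base windows around the matches for Tnfaip3 (minus strand, chr10:19015516-19015545 and chr10:19015403-19015432). Capitals mark the match to the 10-base NF-κB consensus searched on both strands.
Rel: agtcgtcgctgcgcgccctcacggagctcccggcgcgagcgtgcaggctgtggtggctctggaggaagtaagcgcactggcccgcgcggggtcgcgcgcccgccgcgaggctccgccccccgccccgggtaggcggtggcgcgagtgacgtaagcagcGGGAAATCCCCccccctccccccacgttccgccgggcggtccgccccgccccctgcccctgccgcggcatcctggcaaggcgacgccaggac
Traf3: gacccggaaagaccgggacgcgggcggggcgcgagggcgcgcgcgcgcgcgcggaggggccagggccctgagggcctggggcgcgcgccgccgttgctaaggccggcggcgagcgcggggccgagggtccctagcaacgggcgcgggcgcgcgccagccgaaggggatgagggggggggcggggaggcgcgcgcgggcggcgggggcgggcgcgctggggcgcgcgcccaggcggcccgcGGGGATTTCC
Tnfaip3, first window: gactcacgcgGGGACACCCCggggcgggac
Tnfaip3, second window: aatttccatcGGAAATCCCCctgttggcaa
Of 63 shared genes named by the rule, 36 had a promoter in the RefSeq table (300 bases, with 250 before and 50 from the start on). The consensus was present in 8 of these 36 genes (22.2%): 4930447C04Rik, Adam19, Col6a2, Edem1, Rel, Tef, Tnfaip3 and Traf3. The consensus occurred in 9.55% of all 27025 genes with a promoter. Rel, Tnfaip3 and Traf3 were named as called members of the IKK and NF-κB lists. The 36 genes were thus partly picked for this pathway, and their share was not read as a result. A match is a description of letters and shows no binding.

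Among the genes with separated genotypes, Rab4a (chr8:123805985-123835287), a small GTPase of endosome recycling, had 85.85, 105.6, 60.80, 89.25 and 90.86 normalized counts in IKKβ+/+ saline mice and 142.8, 169.6, 178.4 and 192.3 in IKKβ-/- saline mice. With Ang II it had 62.12, 83.25, 94.34, 94.59 and 109.3 in IKKβ+/+ mice and 130.3, 212.7, 151.1, 136.5 and 156.8 in IKKβ-/- mice. Every knockout mouse was above every control. Its difference was 0.90 ± 0.13 (SE; adjusted p = 0.00221), 0.99 with saline and 0.82 with Ang II. Gsr (chr8:33652523-33698163), glutathione reductase, which restores reduced glutathione, had 441.4, 554.0 and 721.3 normalized counts in the lowest, median and highest IKKβ+/+ mouse and 785.3, 988.2 and 1041 in IKKβ-/- mice. Its difference of 0.69 ± 0.10 (SE; adjusted p = 0.00147) was 0.95 with saline and 0.47 with Ang II. The interaction for Gsr had an adjusted p = 0.308 by limma. Gsr was 1 of 20 genes tested in the NRF2 antioxidant list and its only called member, where 3.03% of all genes were called higher. The list median was 0.04. Leaving out X2350, X2356, X2380, X2383 or X2409 in turn gave 2 rises in it.

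Acbd4, an acyl-CoA binding domain protein, had 450.0, 621.0 and 835.3 normalized counts in IKKβ+/+ mice (lowest, median, highest) and 812.7, 1287 and 1505 in IKKβ-/- mice, a difference of 0.93 ± 0.12 (SE; adjusted p = 0.00102). Nim1k, a serine/threonine kinase, had 59.64, 81.82 and 103.5 and then 165.4 at the median of the knockout mice, which ran from 77.47 to 256.2. It rose by 0.94 ± 0.17 (SE; adjusted p = 0.0128), 0.74 with saline and 1.11 with Ang II, and 8 of 9 knockout mice were above every control. Pkig, an inhibitor of protein kinase A, rose by 0.39 ± 0.07 (SE; adjusted p = 0.0124) with no overlap between the genotypes.

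Hgsnat (chr8:25944453-25976753), a lysosomal enzyme that acetylates heparan sulphate during its breakdown, fell with no overlap between the genotypes. Its levels were 623.9, 697.4 and 812.2 normalized counts in the lowest, median and highest IKKβ+/+ mouse and 362.1, 480.1 and 532.6 in IKKβ-/- mice. The difference was -0.56 ± 0.07 (SE; adjusted p = 0.00102), -0.62 with saline and -0.51 with Ang II. Ap2b1, a subunit of the AP-2 clathrin adaptor, fell by 0.32 on the log2 scale (adjusted p = 0.0458) with no overlap, but the call was not kept without X2385 and X2406 (adjusted p = 0.153). Meox1 and Irx3 are homeobox transcription factors of low level here. Meox1 had 36.29, 58.65 and 118.1 normalized counts in the lowest, median and highest IKKβ+/+ mouse and 10.16, 19.82 and 41.21 in IKKβ-/- mice, a difference of -1.45 ± 0.27 (SE; adjusted p = 0.0128). Irx3 had a mean of 38.25 ± 18.2 (SD, n = 10) against 14.73 ± 5.67 (SD, n = 9), a difference of -1.31 ± 0.23 (SE; adjusted p = 0.0113).

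Fut10, a fucosyltransferase family member, fell by 0.98 on the log2 scale (adjusted p = 0.00933), from a median of 237.0 normalized counts in IKKβ+/+ mice to 115.6 in IKKβ-/- mice. Of the others that kept the call in every setting, Dynlt1b, Tmem181b-ps, G530011O06Rik, Gm21092 and Gm36161 are copies, pseudogenes or unnamed transcripts, for which read assignment is uncertain. Dynlt1b, a dynein light chain gene with close copies, ran from 72.53 to 118.5 normalized counts in IKKβ+/+ mice and from 7.393 to 72.26 in IKKβ-/- mice, while its copy Dynlt1f was not called (adjusted p = 0.245). Tmem181b-ps, 8.41 kb from Dynlt1b on chromosome 17, fell by 1.14 on the log2 scale (adjusted p = 0.0143), and its protein-coding relative Tmem181a differed by -0.11 (adjusted p = 0.648). G530011O06Rik, on chromosome X, ran from 22.63 to 69.31 in controls and from 0 to 19.27 in knockout mice. Gm21092 ran from 6.958 to 13.29 in controls and from 0 to 3.16 in knockout mice, and Gm36161 from 7.595 to 19.38 and from 0 to 5.405. No fold is given for Gm21092 and Gm36161, which passed the filter only through the controls. Gm36161 lies 300 kb from Nim1k, described above, on chromosome 13.

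**Figure D3:**
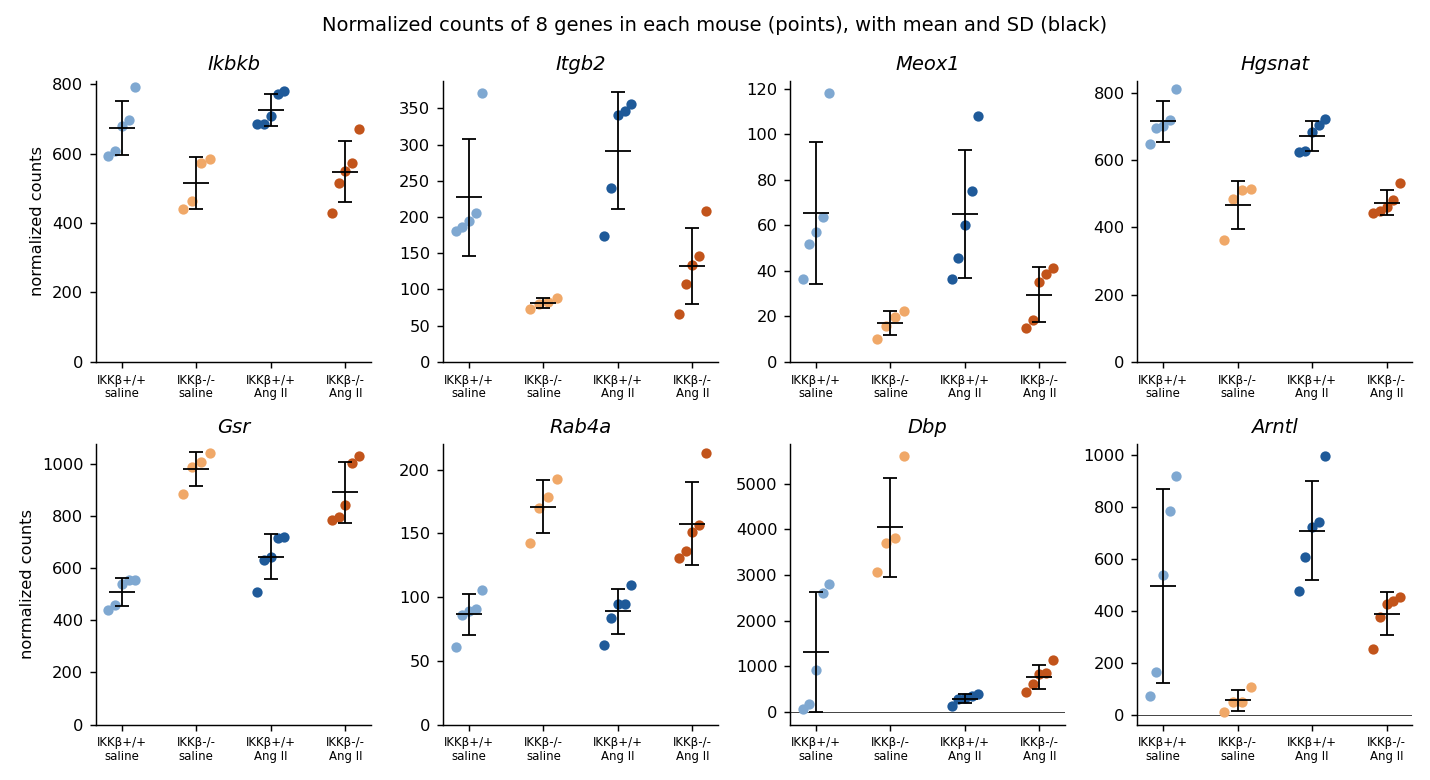
Normalized counts of Ikbkb, Itgb2, Meox1, Hgsnat, Gsr, Rab4a, Dbp and Arntl, with 1 point per mouse in the 4 groups and the mean with SD. Hgsnat, Gsr and Rab4a show no overlap between the genotypes, Ikbkb overlaps in 1 knockout mouse, and Dbp and Arntl differ in level between saline and Ang II as well as between genotypes.

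The genes described next are known from leukocytes and were picked for their change or from the marker lists, so they are no independent set. Itgb2 (chr10:77530252-77565708), the beta2 integrin chain of leukocytes, had 205.6, 180.2, 194.7, 371.2 and 186.5 normalized counts in IKKβ+/+ saline mice and 88.79, 83.23, 79.27 and 72.57 in IKKβ-/- saline mice. With Ang II it had 347.0, 340.5, 173.3, 356.4 and 240.5 in IKKβ+/+ mice and 134.0, 66.67, 208.1, 107.6 and 146.5 in IKKβ-/- mice. One knockout mouse, with 208.1, lay within the control range and the other 8 were below it. The difference was -1.29 ± 0.19 (SE; adjusted p = 0.00256), -1.43 with saline and -1.17 with Ang II. Nckap1l, the haematopoietic subunit of the WAVE actin complex, had 155.3, 216.2 and 251.7 normalized counts in the lowest, median and highest IKKβ+/+ mouse and 80.40, 109.6 and 149.1 in IKKβ-/- mice. It fell by 0.83 on the log2 scale (adjusted p = 0.00551) with no overlap. Lcp1, an actin-bundling protein of leukocytes, fell by 0.75 (adjusted p = 0.0113), by 1.08 with saline and by 0.46 with Ang II. Wdfy4, known for antigen cross-presentation in dendritic cells, fell by 1.07 (adjusted p = 0.0143).

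The macrophage marker list had 18 members tested, with 2 called, both lower, and a median of -0.50. Their differences were negative in 17 of 18 and had the same sign with both infusions in 17 of 18. The summed level of the list ran from 11490 to 17400 normalized counts in IKKβ+/+ mice (median 15160) and from 7132 to 22030 in IKKβ-/- mice (median 10700), so the groups overlapped. Cd68, a lysosomal glycoprotein of macrophages, fell by 0.84 on the log2 scale (adjusted p = 0.0224), and Lyz2, lysozyme, by 0.64 (adjusted p = 0.0611). The number called in the list was 8 without X2384, 5 without X2350, 4 without X2386 and 1 without X2376, without X2385 and without X2406. Of 9 lymphocyte markers 1 fell, Ptprc (CD45, a phosphatase of all leukocytes), by 0.68 (adjusted p = 0.0912), a count that was 0 without X2352, X2359, X2370, X2372, X2373, X2376, X2378, X2385, X2401, X2403 or X2406 and 2 without X2356, X2383 or X2386, and of 8 genes of MHC class II presentation 1 fell, Ctss (cathepsin S), by 0.71 (adjusted p = 0.0515). Ptprc was not shared. With Ang II, 4 of the 9 lymphocyte markers and 5 of the 8 MHC class II genes were positive. The sign was the same with both infusions in 4 of the 9 and 3 of the 8. Over all genes tested 2.9% were called lower. The part of leukocyte numbers in the differences was not tested.

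Extracellular matrix transcripts were lower in IKKβ-/- mice where they passed the test. Of 36 genes of the collagen and fibrosis list 12 fell and none rose, 8 of them shared, with a median of -0.43, -0.34 with saline and -0.60 with Ang II. The genes that fell encode chains of collagens IV, V, VI, XV and XVIII, the collagen-modifying enzyme Plod1, tenascin C (Tnc) and Tgfb1. Col15a1 had a median of 8848 normalized counts in IKKβ+/+ mice and 5112 in IKKβ-/- mice, a difference of -0.74 ± 0.15 (SE; adjusted p = 0.0222). Col6a2 ran from 11050 to 17440 in IKKβ+/+ mice and from 5664 to 12720 in IKKβ-/- mice and fell by 0.65 (adjusted p = 0.0214), and Col6a1 by 0.60 (adjusted p = 0.0289). Without X2385 and X2406, 2 of the 12 calls were left in the list, with the clock genes as covariate 8, and with the mitochondrial share none.

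Of 21 genes of elastic fibres and their crosslinking 6 fell and none rose, with a median of -0.32. Ltbp2, a latent TGF-β binding protein of the matrix, had 1694, 2233 and 3015 normalized counts in the lowest, median and highest IKKβ+/+ mouse and 816.1, 1313 and 2111 in IKKβ-/- mice, and fell by 0.72 (adjusted p = 0.0173). Lox, lysyl oxidase, which crosslinks collagen and elastin, fell by 0.61 (adjusted p = 0.0354), with -0.61 with saline and -0.60 with Ang II. Fbn1 (fibrillin-1) fell by 0.56 (adjusted p = 0.0801) and Loxl1 by 0.32 (adjusted p = 0.0588), but neither was shared, with -0.34 for Fbn1 with Ang II and -0.20 for Loxl1 with saline. Of the 6 genes 3 were shared (Ltbp2, Ltbp3 and Lox). The number called in the list was 3 without X2373, without X2385 and without X2406, and 1 without both of the last 2. With the mitochondrial share as covariate it was 0.

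Some of the other large falls were in genes of the ADAM family and in Plat. Adam12, a disintegrin and metalloproteinase, fell by 1.74 ± 0.39 (SE; adjusted p = 0.032), from a median of 64.86 to 19.82 normalized counts. Adam19, of the same family, had 312.1, 442.8 and 1160 normalized counts in the lowest, median and highest IKKβ+/+ mouse and 93.76, 262.5 and 338.0 in IKKβ-/- mice, and fell by 1.05 with each infusion (adjusted p = 0.0173). Adam11, a member without protease activity, fell by 1.15 (adjusted p = 0.0143). Of 20 metalloproteinases and inhibitors 2 fell, Adam12 and Adamts4, with a median of -0.26, where 2.9% of all genes were called lower. Adamts4 was not shared (-2.99 with saline, -0.49 with Ang II). The number that fell was 6 without X2350, 5 without X2386, 4 without X2380, and 1 without X2358, X2359, X2370, X2372, X2373, X2385, X2401, X2403 or X2406 in turn. Plat, tissue plasminogen activator, had a median of 2045 normalized counts in IKKβ+/+ mice and 999.3 in IKKβ-/- mice and fell by 1.10 (adjusted p = 0.019). Lrp8, a receptor for apolipoprotein E and reelin, fell by 1.06 (adjusted p = 0.0266), by 0.60 with saline and by 1.47 with Ang II.

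Of 19 circadian clock genes 6 rose and 4 fell. The clock is a feedback loop in which CLOCK or NPAS2 and BMAL1 (Arntl) bind E-boxes and switch on their own repressors and the output factors Dbp and Tef, so the 2 arms peak at opposite times. Dbp had 164.4, 71.45, 923.4, 2806 and 2613 normalized counts in IKKβ+/+ saline mice and 3705, 3060, 5597 and 3813 in IKKβ-/- saline mice. With Ang II it had 393.1, 345.8, 133.8, 291.4 and 288.3 in IKKβ+/+ mice and 440.8, 1132, 823.1, 608.6 and 848.3 in IKKβ-/- mice. The genotypes were apart with each infusion, and the IKKβ+/+ saline mice themselves spread from 71.45 to 2806. Dbp rose by 2.02 ± 0.53 (SE; adjusted p = 0.055), Per3 by 1.31 (adjusted p = 0.0458), Nr1d2 by 0.97 (adjusted p = 0.0658) and Tef by 0.95 (adjusted p = 0.0447). Bhlhe41 rose from a median of 245.3 normalized counts in IKKβ+/+ mice to 494.9 in IKKβ-/- mice (adjusted p = 0.045).

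In the opposite arm, Arntl had 786.0, 921.0, 537.5, 72.16 and 165.0 normalized counts in IKKβ+/+ saline mice and 109.1, 51.62, 12.61 and 51.52 in IKKβ-/- saline mice. With Ang II it had 995.0, 609.5, 722.9, 742.4 and 479.1 in IKKβ+/+ mice and 427.0, 378.6, 254.6, 452.8 and 440.9 in IKKβ-/- mice. With saline 1 knockout mouse lay above the lowest control, and with Ang II all 5 lay below every control. Arntl fell by 1.83 ± 0.47 (SE; adjusted p = 0.0494), Npas2 by 1.42 (adjusted p = 0.0354), Rora by 0.46 and Clock by 0.39. Of the 6 rises 5 were shared, and of the 4 falls 2. Rora (-0.23 with saline), Clock (-0.16 with Ang II) and Ciart, which rose by 1.86 (0.52 with Ang II), were not shared. The hour of collection is not stated, and its part in these differences was not tested. The clock covariate was the mean of the clock genes themselves, in which the 2 arms partly cancel, so it does not measure that hour. With the clock genes as covariate 500 genes were called, 385 of them among the 880, and 228 of the 326 shared genes kept the call. Of the clock genes 2 rose without X2406, and 2 fell without X2372, X2373, X2385, X2401 or X2406 in turn. Neither direction kept a call without both X2385 and X2406 or with the mitochondrial share as covariate.

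Windows of 30 bases are shown for the E-boxes (CACGTG) of Bhlhe41 and Tef and the ROR element (a site of the ROR and REV-ERB receptors) of Arntl, since these clock genes moved in opposite directions. Capitals mark the match, and the searches for these motifs were added after the data were seen. The windows lie on GRCm38.p6 at chr6:145865556-145865585 (minus strand) for Bhlhe41, at chr15:81802534-81802563 and chr15:81811264-81811293 (plus strand) for 2 starts of Tef, and at chr7:113207528-113207557 (plus strand) for Arntl.
Bhlhe41: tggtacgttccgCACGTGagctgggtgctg
Tef, first start: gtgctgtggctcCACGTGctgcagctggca
Tef, second start: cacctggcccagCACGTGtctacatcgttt
Arntl: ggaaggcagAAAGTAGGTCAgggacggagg
The E-box was in 5 of the 36 shared genes with a promoter (13.9%) against 8.09% of all genes. These were Bhlhe41, Tef and 4930447C04Rik, which rose, and Adam19 and Tnfaip3, which fell. The ROR element was in 1 (2.78%), Arntl, against 0.459%. Bhlhe41, Tef and Arntl are called members of the clock list, so these shares were not read as a result. No other clock gene was among these matches, and a match shows no binding.

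Transcripts of cytosolic ribosomal proteins were higher where they passed the test. Of these genes 27 of 81 rose and none fell, with a median of 0.27, 0.36 with saline and 0.17 with Ang II. Of the 81, 75 were positive. Rps20 had 1007, 1297 and 1452 normalized counts in the lowest, median and highest IKKβ+/+ mouse and 1472, 1691 and 1868 in IKKβ-/- mice, a difference of 0.37 ± 0.07 (SE; adjusted p = 0.0128), and Rps4x rose by 0.33 ± 0.06 (adjusted p = 0.0128). Ribosomal protein genes have many processed copies in the genome, so their read assignment is uncertain. The number that rose was 11 without X2373, 12 without X2370, X2385, X2401 or X2403 in turn, 14 without X2359 or X2406, 16 without X2376, 17 without X2384 and 41 without X2383. Without both X2385 and X2406 it was 2, and with the mitochondrial share as covariate 0.

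Nuclear genes of respiratory complexes I to V showed the same direction, with 16 of 75 higher, none lower and a median of 0.17. Cox6c, a cytochrome oxidase subunit, rose by 0.46 ± 0.12 (SE; adjusted p = 0.0494) and Atp5l, a subunit of ATP synthase, by 0.42 ± 0.10 (adjusted p = 0.0458). None of the 16 was a shared gene. The count was 2 without X2406, 3 without X2373, 5 without X2359, X2385 or X2403 in turn, 6 without X2384, 8 without X2401 and 10 without X2376 or X2378. It was 0 without both X2385 and X2406 and 0 with the mitochondrial share as covariate. Of 8 mitochondrially encoded mRNAs 4 rose, with a median of 1.09. mt-Nd4, a complex I subunit, ran from 52260 to 127800 normalized counts in IKKβ+/+ mice and from 64650 to 548500 in IKKβ-/- mice, with 7 of 9 knockout mice above every control. Between 0 and 8 of the 8 were called when 1 mouse was left out, and none without both X2385 and X2406.

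Other groups moved in few members, beside 2.9% of all genes called lower. Of 30 cell division genes 3 fell (Mki67 by 1.02, Prc1 by 1.05 and Cenpe by 1.26), with a median of -0.53, and the count was 1 without X2359, X2373, X2385 or X2406 in turn and 5 without X2383. Of 35 genes of the unfolded protein response 4 fell, all of them shared. Hyou1 is a chaperone of the endoplasmic reticulum, Ern1 and Atf6 are stress sensors, and Edem1 directs misfolded glycoproteins to degradation. Their falls ran from 0.34 to 0.58, and the count was 0 without X2406, 1 without X2373 or X2403 and 2 without X2359, X2385 or X2401. Of 25 contractile genes of smooth muscle 1 rose, near the 3.03% of all genes that were called higher. It was Pln (phospholamban, an inhibitor of the calcium pump), by 0.85 (adjusted p = 0.0706), with a list median of 0.04. That call was lost without X2358, X2372, X2373, X2376, X2385 or X2406 in turn. The contractile list median was 0.28 with saline and -0.20 with Ang II.

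The rest of the lists held 0 to 3 called genes each. Among the glucocorticoid-induced genes Klf9 rose by 0.59 (adjusted p = 0.0348) and Sult1a1 by 0.62 (adjusted p = 0.0877), while Cdkn1a fell by 0.66 (adjusted p = 0.0635). Klf9, Sult1a1 and Cdkn1a were not shared, and leaving out 1 mouse gave 1 to 2 rises and 0 to 1 falls in that list. The lower counts came without X2350, X2352, X2358, X2359, X2370, X2372, X2373, X2376, X2384, X2385, X2403 or X2406 for the rises (1 each) and without X2358, X2370, X2373, X2385 or X2406 for the falls (0 each). Of 29 fatty acid oxidation genes 1 rose, Acot2 by 0.54 (adjusted p = 0.0846, not shared). Of 18 fatty acid synthesis genes 1 fell, Acly by 0.49 (adjusted p = 0.098, not shared). Over all genes 3.03% were called higher and 2.9% lower, and a single call is read as no result about either list. The Acly call was kept in 6 of 19 fits that each left out 1 mouse and the Acot2 call in 7 of 19. The count of fatty acid oxidation genes was 6 without X2409, 5 without X2383, 3 without X2356, 2 without X2378, X2380 or X2403, and 0 without X2350, X2352, X2373, X2376, X2384, X2385 or X2406.

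Of 62 ribosome biogenesis genes 2 fell, Bop1 (adjusted p = 0.059) and Heatr1 (adjusted p = 0.0662), a share near the 2.9% of all genes that were called lower. That count was 6 without X2356, 5 without X2383 or X2409, 4 without X2378, 1 without X2358 or X2401 and 0 without X2373, X2385 or X2406. Of 24 autophagy and lysosome genes 2 fell, among them Atg9a by 0.42 (adjusted p = 0.0602). The count was 1 without X2359, X2370, X2372, X2376, X2401 or X2403 and 0 without X2373, X2385 or X2406. No gene was called in the lists of type I interferon, interferon gamma GTPases, MHC class I, proteasome, cholesterol synthesis and immediate early genes, or in the marker lists of adipocytes, endothelium, lymphatic endothelium, fibroblasts, neurons, skeletal muscle, mesothelium, adrenal and erythroid cells. In some of these lists a main effect near 0 was made of opposite medians: -1.36 with saline and 1.03 with Ang II for adipocyte markers, and 0.58 and -0.68 for immediate early genes.

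**Figure D4:**
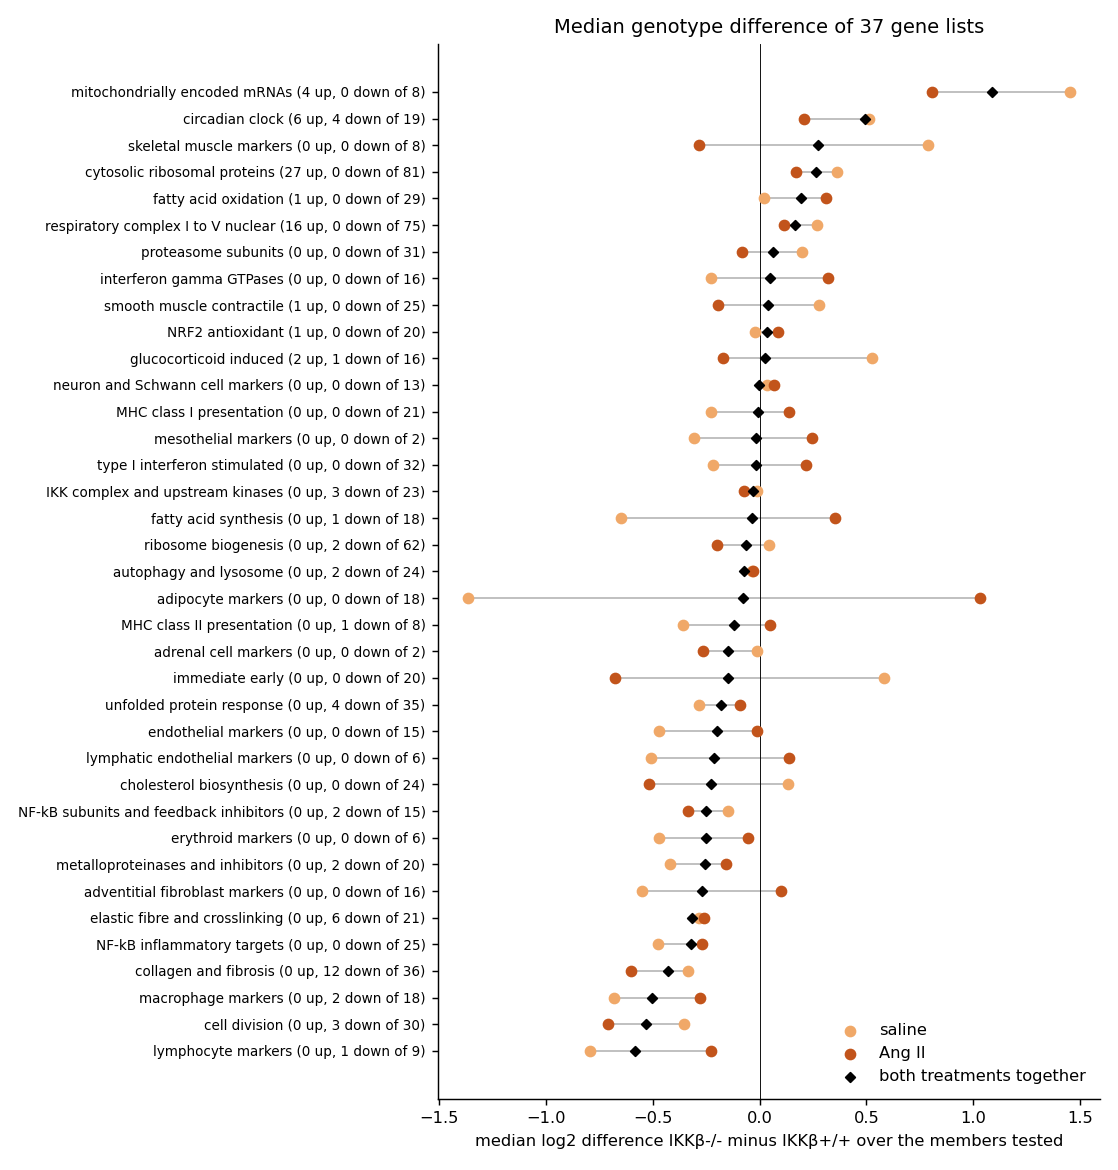
The median log2 difference between IKKβ-/- and IKKβ+/+ mice of each of the 37 gene lists, for saline, Ang II and both infusions, with the number of members called higher and lower beside each. The cytosolic ribosomal protein, nuclear respiratory and mitochondrially encoded lists lie above 0 and matrix, macrophage and cell division lists below 0 with both infusions, while the adipocyte and immediate early lists change sign between them.

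Among shared genes with a mean of at least 50 normalized counts in either genotype, some of the 15 largest changes each way belonged to no list. Tcap, telethonin of the muscle Z-disc, rose by 1.64 ± 0.36 (SE; adjusted p = 0.0289), with 1.67 with saline and 1.61 with Ang II. Its level ran from 63.19 to 1113 normalized counts in IKKβ+/+ mice and from 220.9 to 1483 in IKKβ-/- mice. Mir99ahg kept its call in 11 of 19 fits that each left out 1 mouse, and mouse X2406 had its highest value, 2180 normalized counts. Kcnq1ot1, an imprinted antisense RNA, rose by 1.26 (adjusted p = 0.0384), Mir99ahg, a microRNA host transcript, by 1.22 (adjusted p = 0.0731; 0.14 with the mitochondrial share as covariate) and Spata1 by 0.98 (adjusted p = 0.0214). The pseudogene Gm13340 and the mitochondrial tRNA genes mt-Tm and mt-Tw rose by 1.09, 1.14 and 1.05. With the mitochondrial share as covariate they differed by 0.06, 0.04 and 0.03. Reads on mt-Tm and mt-Tw are part of that share, so their small values with it were largely fixed in advance. Fgd3 fell by 1.31 (adjusted p = 0.0831) and kept its call in 10 of 19 fits that each left out 1 mouse. Without X2385 and X2406 the calls of Tcap (adjusted p = 0.104), Kcnq1ot1 (0.158) and Fgd3 (0.131) were lost, and that of Spata1 (0.0886) was kept. With the mitochondrial share as covariate the adjusted p was 0.363 for Tcap, 0.734 for Kcnq1ot1, 0.59 for Fgd3 and 0.494 for Spata1, all over the threshold.

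The share of genes called was also counted around the targeted locus. Within 10 Mb of Ikbkb 13 of 102 other genes tested were called (12.7%), 10 of them lower and 3 higher, against 32 of 681 (4.7%) on the rest of the chromosome. Chromosome 8 as a whole had 46 of 784 called (5.87%), near the 5.93% of all genes tested. Shared genes made up 6 of the 102 (5.88%) and 14 of the 681 (2.06%). Of the 13 called genes, Gm21092, Gm40466, E330037G11Rik and F10 had fewer than 4 mice at 10 normalized counts in 1 genotype, so that they passed the filter through the other. With a mean of at least 50 over all mice 8 of 73 genes within 10 Mb were called and 27 of 531 on the rest of the chromosome. Plat lies 98.5 kb from Ikbkb, Smim19 197 kb, Ank1 316 kb, Hgsnat 3.29 Mb and Fut10 8.53 Mb. Smim19, a small membrane protein, rose from a median of 282.7 to 396.1 normalized counts, by 0.48 ± 0.08 (SE; adjusted p = 0.00919). Ank1, an ankyrin that links membrane proteins to spectrin, had 63.61, 83.55 and 166.0 in the lowest, median and highest IKKβ+/+ mouse and 16.06, 31.42 and 75.67 in IKKβ-/- mice, a difference of -1.39 ± 0.25 (SE; adjusted p = 0.0113). Col4a1 and Col4a2 on one side and Ubxn8, Gsr, Rbpms and Gm9951 on the other were called and lie just outside the window. Of the 17 genes that kept the call in every setting 7 (41.2%) were on chromosome 8, which holds 784 (5.28%) of the genes tested. The 7 include Ikbkb itself and Gm21092, and with a mean of at least 50 they were 5 of 11, Ikbkb among them, where chromosome 8 holds 605 (5.3%) of the 11421 genes. The cause was not tested.

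**Figure D5:**
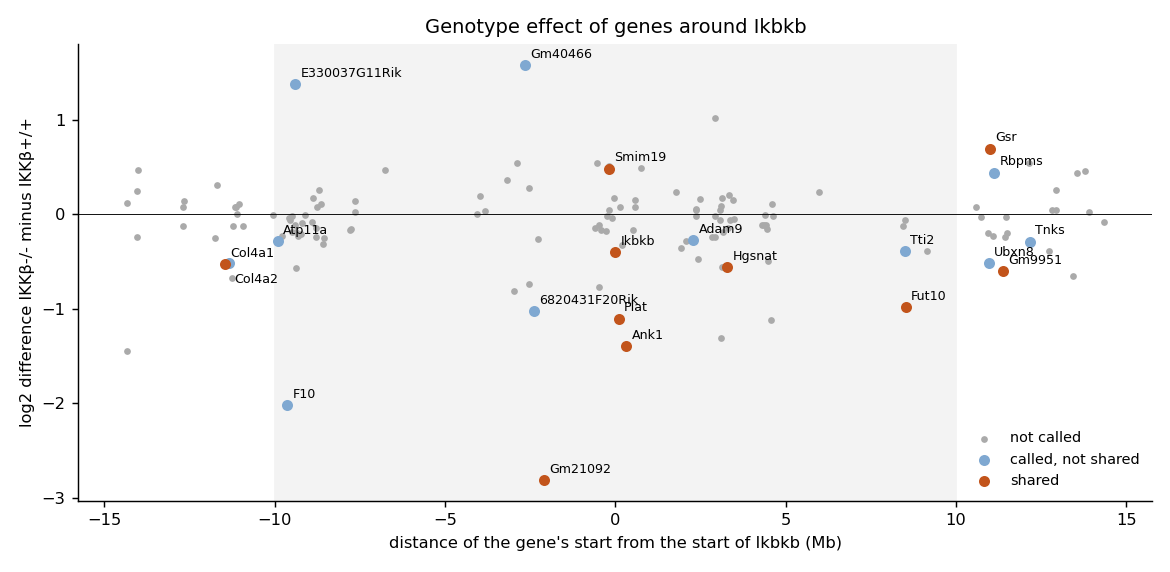
The log2 difference between IKKβ-/- and IKKβ+/+ mice of each gene tested near Ikbkb by its distance in Mb, with the 10 Mb on either side shaded and called genes labelled. Called genes lie on both sides of the targeted gene, 13 of them within the shaded range, with Plat, Ank1 and Gm21092 lower and Smim19 higher.

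Each infusion was also called alone. With saline 1420 genes (9.57%) passed both thresholds, and with Ang II 1 gene did (0.00674%), the pseudogene Ncoa4-ps, although 1623 genes had an unadjusted p under 0.05 there. Of the 1420 saline genes, 924 (65.1%) had the same sign with Ang II, against 58.3% of all genes, and 163 (11.5%) had the same sign with p under 0.05, against 7.53% of all genes. A further 41 had the opposite sign with p under 0.05. The 730 of them that were higher with saline had a median difference of 0.61 there and 0.14 with Ang II, and the 690 that were lower had -0.69 and -0.08. No mouse entered both fits. The saline count was 334 without X2373, 479 without X2376, 509 without X2406, 608 without X2403, 669 without X2370, 754 without X2372, 791 without X2401 and 2670 without X2409. The count repeated with Ang II was 39 without X2373, 60 without X2406, 65 without X2370 or X2403, 71 without X2376, 79 without X2372, 85 without X2401 and 302 without X2409.

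Ncoa4-ps had 48.98, 43.65, 54.94, 44.96 and 123.4 normalized counts in IKKβ-/- Ang II mice and 3.213, 5.337, 2.194, 5.733 and 9.94 in IKKβ+/+ Ang II mice. Every knockout mouse was above every control, but the gene passed the filter on low values only through the knockout mice, so this is partly fixed by the filter. The related gene Ncoa4 differed by -0.64 in the main effect (adjusted p = 0.111), and reads of such copies cannot always be told apart. The Ang II count was 24 without X2356, 4 without X2383, 3 without X2352 and 0 without X2350, X2358, X2380, X2385 or X2386 in turn. For the genotype by infusion interaction 0 genes (0.0%) passed the adjusted threshold in limma, where 1654 had an unadjusted p under 0.05 and the smallest adjusted p was 0.215. With array quality weights 76 passed, without X2356 79, without X2406 19 and without X2378 or X2409 1 each. Of the 326 shared genes 6 had an unadjusted interaction p under 0.05, among them Gsr, Arntl, Npas2 and Lrp8.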

How the data were processed

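Poly(A) RNA of the suprarenal aorta of 19 mice was made into stranded libraries and sequenced as single-end reads. The authors used Trimmomatic 0.35 for trimming, STAR 2.7.1a for alignment to GRCm38 and counting per Gencode gene, and DESeq2 1.30.1 for normalization. The labels' processing notes also name RSEM. The deposited values are gene counts divided by a size factor, a signal that is comparable between samples, and 100% of them were whole multiples of 1 read (tolerance 0.01 reads), so read counts could be recovered.

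Here log2(normalized count + 1) was fitted with limma 3.58.1 in R 4.3.3 (trend) for 14845 of 20408 genes, those with a value of at least 10 in at least 4 libraries. The model held genotype and infusion over all 19 mice, and each infusion was also fitted alone. Calls needed a fold change over 1.2 and an adjusted p below 0.1. edgeR 4.0.16 and DESeq2 1.42.0 on the recovered counts, other scalings, covariates and filters, and each mouse left out, were alternatives. The circadian and mitochondrial settings used a score or read share as covariate, and the settings on mitochondrial share and on mice X2385 and X2406 were added after the data were seen. The script was tested on data simulated from the real means. No 2 libraries agreed within sampling noise (lowest chi-square per gene 21.24 over 36 pairs within groups). No batch or hour of collection is stated in the sources used here.

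Genes named were Ikbkb and other IKK and Rel genes, the 15 shared genes with the largest change each way and a mean of at least 50, up to 8 called genes each way with no overlap, up to 4 called members of each list and called genes within 10 Mb of Ikbkb. Some genes that the rule names are not reported here. The members and lists were chosen with earlier results of these data known. Promoters are from RefSeq on GRCm38.p6.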

Additional observations from a re-analysis of the deposited data

Results flagged for a closer look

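Among 101 named genes, each in 4 groups of mice (404 sets of values), 24 sets had 1 mouse far from the rest of its group. The gap from that mouse to its nearest neighbour was larger than Dixon's 95% limit. Chance alone gives this in about 1 in 20 sets. All values are normalized counts and no explanation is weighed.

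In IKKβ+/+ saline mice 7 sets were of this kind. Gm49539 was 24.71 in mouse X2378 and 2.848 to 8.811 in the others. Mouse X2376 had 371.2 for Itgb2, where the other mice had 180.2 to 205.6. For Ap2b1 the value of mouse X2373 was 2301, against 1937 to 2027. Pln was 384.7 in mouse X2370 and 138.9 to 180.6 in the others. Mouse X2373 had 72.25 for Cenpe, where the other mice had 43.04 to 49.37. For Atp11a the value of mouse X2373 was 1237, against 1001 to 1044. Chuk was 511.3 in mouse X2372 and 435.2 to 455.5 in the others.

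In IKKβ+/+ Ang II mice 9 sets were of this kind. Kcnq1ot1 was 850.4 in mouse X2350 and 262.7 to 424.8 in the others. Mouse X2350 had 61.05 for Gm13340, where the other mice had 92.44 to 104.2. For Wdfy4 the value of mouse X2350 was 31.06, against 67.24 to 79.3. Pln was 226.6 in mouse X2359 and 126.1 to 138.2 in the others. Mouse X2356 had 6586 for Rps14, where the other mice had 4570 to 4973. For Cox6c the value of mouse X2359 was 1145, against 1359 to 1414. Ptprc was 358.6 in mouse X2352 and 145.7 to 181.9 in the others. Mouse X2356 had 15.36 for 6820431F20Rik, where the other mice had 29.62 to 33.2. For Ikbkg the value of mouse X2358 was 755.7, against 601.1 to 631.9.

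In IKKβ-/- saline mice 3 sets were of this kind. Per3 was 1616 in mouse X2406 and 852.3 to 887.9 in the others. Mouse X2409 had 1242 for Atf6, where the other mice had 846 to 910.1. For Tti2 the value of mouse X2406 was 183.8, against 129.3 to 136.4.

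In IKKβ-/- Ang II mice 5 sets were of this kind. Per3 was 385.6 in mouse X2384 and 162.2 to 223.6 in the others. Mouse X2380 had 1277 for Nr1d2, where the other mice had 1927 to 1986. For Adam11 the value of mouse X2383 was 506.4, against 95.09 to 170.9. Ctss was 768.1 in mouse X2384 and 285.8 to 350.3 in the others. Mouse X2380 had 31.42 for Cenpe, where the other mice had 2.571 to 8.453.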

How the results depend on the processing

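The 880 calls were 903 with a pseudocount of 4, 634 without a filter on low values, 885 with TMM scaling, 1062 with array quality weights, 1075 as the mean of the infusion effects, 870 with edgeR's quasi-likelihood test, 1117 with adipocyte and 915 with neuron scores as covariate. Of the calls 51.1% were higher as reported and 45.3% with TMM scaling. DESeq2 gave 1412 (816 higher), the clock covariate 500 (219 higher, 281 lower), the mitochondrial covariate 23 (4 higher, 19 lower), an adjusted p under 0.05 241 (108 higher, 133 lower) and a fold change above 1.5 333 (185 higher, 148 lower). Without mice X2385 and X2406 there were 74 (24 higher, 50 lower), 63 shared, 509 with saline, 0 with Ang II, 45 repeated and 3 with interaction. Array quality weights gave 2 calls with Ang II, 1 of them repeated with saline, and 76 with interaction. None (0) of the saline calls was called with Ang II.

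Leaving out 1 mouse gave 275 to 1487 calls (123 to 763 higher, 152 to 737 lower), 185 to 467 shared genes, 334 to 2670 with saline, 0 to 24 with Ang II, 39 to 302 saline calls repeated, 0 to 5 Ang II calls repeated with saline, 0 to 79 with interaction, and Ikbkb differences of -0.44 to -0.36. Signs turned for Rela (0.011 with array weights, 0.015 with the mitochondrial covariate), Nfkbia (-0.034 with the clock covariate, -0.051 with the mitochondrial covariate, and -0.079 without IKKβ-/- mouse X2403 to 0.125 without X2386), Chuk (-0.056), mt-Nd4 (-0.05), mt-Nd1 (-0.025), mt-Nd5 (-0.033) and mt-Nd6 (-0.132), the last 5 with the mitochondrial covariate. Reads on the mt-Nd genes are part of the mitochondrial share, so their values with that covariate were largely fixed in advance. The cause of the turns was not tested. No paired analysis was possible because the mouse numbers are not shared between the groups. With 4 or 5 mice a group, differences within an infusion are imprecise, most of all for genes of few counts.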
